A study of Mus musculus with 6 samples.

Results

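The genes described here encode the ligands, receptors and binding proteins of myostatin and activin signaling. They are the 10 genes *Mstn*, *Gdf11*, *Inhba*, *Inhbb*, *Acvr2a*, *Acvr2b*, *Acvr1b*, *Fst*, *Fstl1*, and *Fstl3*, chosen by gene symbol for their known roles, out of 55421 genes in the deposited count table. Each symbol matched 1 row in every library. C2C12 is a mouse myoblast line that fuses into myotubes when serum is lowered, and both groups were made from it by stable transfection under G418 selection. The normal group (C2C12-CUG5) carries a *GFP* plasmid with 5 CUG repeats and the DM1 group (C2C12-CUG200) carries a *GFP* plasmid with 200 CUG repeats, a model of the toxic repeat RNA of myotonic dystrophy type 1. The study calls the 3 libraries of a group biological replicates but does not say whether a line is 1 clone or whether they came from separate transfections, so p-values cover the spread between these libraries only. Total RNA was sequenced at day 4 of differentiation, and the comparison asks how the DM1 group differs from the normal group at that stage.

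Myostatin, GDF11, and the activins are secreted relatives of TGF-β. A dimer binds a type II receptor (ACVR2A or ACVR2B), which recruits and activates a type I receptor such as ACVR1B, and the active receptor phosphorylates SMAD2 and SMAD3, which enter the nucleus with SMAD4. Follistatin and FSTL3 wrap around activin and myostatin and keep them from their receptors. In skeletal muscle the pathway is known for restraining muscle growth and myoblast differentiation, and animals without myostatin have enlarged muscles.

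In the DM1 group, *Inhba* and *Fstl1* were upregulated and *Fst* was downregulated, and no other member passed the test. *Inhba*, which encodes the subunit of activin A, rose 1.93-fold, *Fstl1* rose 1.66-fold, and *Fst*, which encodes the activin inhibitor follistatin, fell by 0.90 on the log2 scale. Of the 10 members, 2 were called higher and 1 was called lower by edgeR's quasi-likelihood test (Benjamini-Hochberg adjusted p under 0.05). Among all 19005 genes tested, 7.13% were called higher and 8.73% lower. A limma-trend fit of log2(TPM + 1) called 427 genes higher and 816 lower, against 1356 and 1660 in the count test, and it called the same numbers of members. No member also passed the study's cutoff of an absolute log2 fold change over 1, which 2.18% of the tested genes did together with the test. With an unadjusted p-value under 0.05 that number was also 0 of 10, and it was 0 with DESeq2. Leaving out DM1 library 1 put 1 member, *Inhba*, past that cutoff.

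The libraries held from 61707889 to 80957325 counts, and 1 count stands for 75 aligned bases, and since the most common low count was 4, about 4 counts are taken here as 1 sequenced fragment. CPM values are counts scaled to library size with TMM factors and compare 1 gene between libraries. TPM values are also scaled for transcript length and compare genes with each other. The cells carried muscle markers in every library. Of 12 markers of differentiated muscle, 8 were lower and 0 higher in the DM1 group by edgeR's test (0 higher also with DESeq2, and 1, *Mymx*, higher at an unadjusted p-value under 0.05), and their summed level lay between 10558 and 11560 CPM in the normal and between 6923 and 7730 CPM in the DM1 libraries. The 8 were *Myh8*, *Myh3*, *Actn2*, *Acta1*, *Ckm*, *Myog*, *Des*, and *Tnnt3*, with log2 fold changes from -2.90 for *Myh8*, a perinatal myosin gene, to -0.37 for *Tnnt3*, a troponin gene. *Des* and *Tnnt3* lost their calls without normal library 1, 2, or 3 or DM1 library 2. *Des* also lost its call with limma-trend on log2(TPM + 1), and the other 6 kept theirs with any library left out. Of 8 markers of undifferentiated or cycling myoblasts, *Cd34* and *Id2* were higher and 0 were lower (0 lower also with DESeq2, and 1, *Myf5*, at an unadjusted p-value under 0.05). The median log2 fold change of the 8 was -0.13, and their groups did not overlap in CPM for 2 higher and 3 lower. Of all tested genes, 7.13% were called higher and 8.73% lower, and the groups of 37.2% did not overlap in either direction. The call of *Id2* was lost in 5 of the 6 fits without a library and in both limma-trend fits. The genes of these marker lists are named after their values were seen. Of 8 markers of cell types that the culture should lack, 6 were at 0 counts in all libraries, among them *Ptprc* of leukocytes and *Epcam* of epithelium, and the other two had at most 40 counts. The part of this difference in muscle markers in the results on the members was not tested. In bulk RNA, fewer cells that express a gene and less RNA per cell cannot be told apart.

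**Figure D1:**
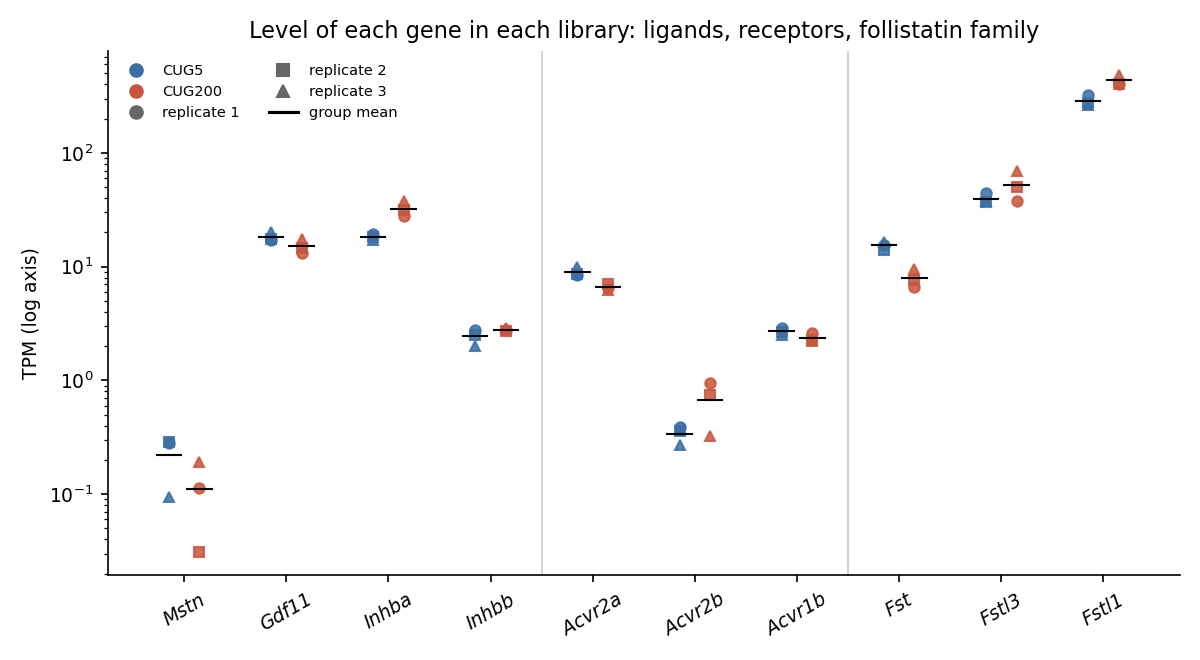
TPM of the 10 genes in each of the 6 libraries on a log axis, grouped as ligands, receptors, and the follistatin family, with the replicate number as the marker shape and the group mean as a bar. *Fstl1* lies highest and *Mstn* lowest in both groups, and the groups are apart for *Inhba*, *Fst*, *Fstl1*, and *Acvr2a*.

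The upstream sequences of *Inhba* and *Mstn* are shown because *Inhba* had the smallest p-value of the members and *Mstn* is the muscle member of the family, whose promoter is known to respond to myogenic factors. They are the 250 bases before the annotated start in RefSeq on GRCm38.p6, both on the plus strand, at chr13:16011601-16011850 for *Inhba* and at chr1:53061390-53061639 for *Mstn*. Capitals mark the E-box CANNTG that myogenic factors bind, which reads the same on both strands, the SMAD element CAGAC, the AP-1 site TGANTCA, and the TATA box TATAAA, all searched on both strands.
Inhba: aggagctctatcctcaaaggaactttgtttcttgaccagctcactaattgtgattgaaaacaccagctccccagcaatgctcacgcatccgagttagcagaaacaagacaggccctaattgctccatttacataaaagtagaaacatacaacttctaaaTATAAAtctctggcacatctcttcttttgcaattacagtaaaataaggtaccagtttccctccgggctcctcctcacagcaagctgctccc
Mstn: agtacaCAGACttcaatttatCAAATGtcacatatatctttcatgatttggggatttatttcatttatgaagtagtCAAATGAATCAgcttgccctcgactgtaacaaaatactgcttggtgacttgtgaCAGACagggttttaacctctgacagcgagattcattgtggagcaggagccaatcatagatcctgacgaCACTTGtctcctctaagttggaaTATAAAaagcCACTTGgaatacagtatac

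The *Mstn* window held 4 E-boxes, which begin 229, 174, 52, and 19 bases before the start, 2 SMAD elements, a TATA box at 29 bases, and an AP-1 site that overlaps the E-box at 174 bases. The *Inhba* window held a TATA box at 91 bases and no match to the other motifs. Among 32807 upstream windows of the same length, 66.2% held an E-box, 42.2% a SMAD element, 6.75% an AP-1 site, and 12.4% a TATA box. Of the 9 members in the RefSeq table, which does not list *Fst*, 4 held an E-box, 4 a SMAD element, 4 a TATA box, and 1 an AP-1 site. These are matches of letters in short windows and not measured binding.

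Among the ligand genes, *Inhba* alone passed the test. Its position in GRCm38 is the plus strand of chromosome 13, from 16011851 to 16031621 (ENSMUSG00000041324). *Inhba* counts were 5734, 4311, and 4738 in normal libraries 1, 2, and 3 and 9265, 9478, and 9350 in DM1 libraries 1, 2, and 3. Every DM1 library therefore lay above every normal library, also after scaling, at 68.7 ± 1.28 CPM in the normal and 133 ± 8.01 CPM in the DM1 group (SD, n = 3 each). The log2 fold change of *Inhba* was 0.95 with SE 0.0796 (edgeR adjusted p = 9.16e-04), and by p-value the gene ranked 19 of 19005. It kept its call in all 16 alternative settings, with a log2 fold change between 0.78 and 1.01 and adjusted p-values up to 0.0201.

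*Inhbb*, the subunit of activin B on chromosome 1, had 557, 399, and 373 counts in the normal and 617, 543, and 474 counts in the DM1 libraries. Once scaled, the groups of *Inhbb* did not overlap, with normal libraries up to 6.63 CPM and DM1 libraries from 7.13 CPM, but its log2 fold change of 0.32 (standard error 0.141) did not pass edgeR's test (adjusted p = 0.163). In TPM the groups of *Inhbb* overlapped. *Gdf11*, a close paralog of myostatin on chromosome 10, had 3254, 2642, and 3563 counts in the normal and 2833, 2795, and 2736 counts in the DM1 libraries. Its groups overlapped after scaling, and the log2 fold change was -0.16 with SE 0.110 (edgeR adjusted p = 0.365). The value for *Gdf11* was -0.04 without normal library 3 and -0.25 without normal library 1.

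*Mstn*, which encodes myostatin, was hardly detected. It lies on the plus strand of chromosome 1 from 53061640 to 53068079 (ENSMUSG00000026100) and had 36, 29, and 12 counts in the normal and 17, 5, and 20 counts in the DM1 libraries, which is at most 9 fragments a library at 4 counts a fragment. Normal library 3 lay below DM1 libraries 1 and 3 once scaled, so the groups overlapped, and the log2 fold change of -0.84 with SE 0.664 (edgeR adjusted p = 0.448) was not past the threshold. With each library left out in turn the value lay between -1.25 and -0.43, the latter without DM1 library 2.

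The ligand transcripts thus came almost entirely from *Inhba* and *Gdf11*, and their proportion differed between the groups. In TPM, *Inhba* gave 49.1%, 47.5%, and 43.6% of the summed level of the ligand genes in the normal libraries and 63.3%, 64.6%, and 65.0% in the DM1 libraries. *Gdf11* gave between 43.1% and 51.1% in the normal and between 29.8% and 30.2% in the DM1 libraries. *Inhbb* gave between 4.92% and 7.05% and *Mstn* at most 0.741% in every library. The summed level of the 4 ligand genes lay between 38.5 and 39.6 TPM in the normal and between 43.9 and 58.5 TPM in the DM1 libraries. These shares are descriptions and were not tested.

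The receptor genes showed no change past the threshold. *Acvr2a*, a type II receptor gene on chromosome 2, had 2257, 1827, and 2426 counts in the normal and 1816, 1913, and 1369 counts in the DM1 libraries. In CPM its groups met at the edge, with normal library 1 at 26.8 and DM1 library 2 at 26.9, and the log2 fold change was -0.35 with SE 0.133 (edgeR adjusted p = 0.118), or -0.23 without normal library 3. In TPM every DM1 library lay lower, at 6.60 ± 0.456 against 8.96 ± 0.772 TPM (SD, n = 3 each). Exons of *Acvr2a* overlap those of *Orc4* on the other strand, which had from 1960 to 4194 counts, and whether the counting used the strand is not given in the sources used here.

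*Acvr2b*, the other type II receptor gene of this set, on chromosome 9, was low in these cells, with 39, 43, and 23 counts in the normal and 56, 76, and 23 counts in the DM1 libraries. Library 3 of each group held the same low count, so the groups overlapped, and the log2 fold change of 0.54 had a standard error of 0.482 (edgeR adjusted p = 0.503). That value was 0.15 without DM1 library 2, 0.33 without normal library 3, 0.86 without normal library 2, and 0.87 without DM1 library 3. *Acvr1b*, the type I receptor gene on chromosome 15, had 606, 444, and 476 counts in the normal and 602, 477, and 377 counts in the DM1 libraries. The groups of *Acvr1b* overlapped, with a log2 fold change of -0.05 with SE 0.155 (edgeR adjusted p = 0.857), which was 0.06 without DM1 library 3. In TPM, *Acvr2a* gave between 64.8% and 78.1% of the summed level of the receptor genes in each library.

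**Figure D2:**
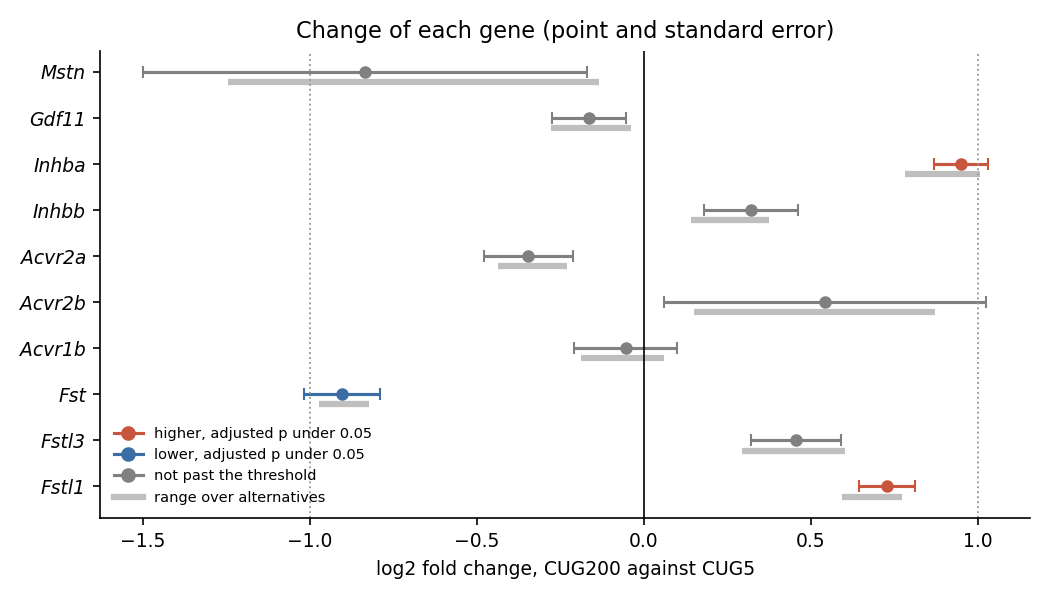
Log2 fold change of each gene, DM1 (CUG200) against normal (CUG5), with its standard error from edgeR and, as a gray bar below it, the range over the alternative settings; the dotted lines mark a log2 fold change of 1 in each direction. *Inhba* at 0.95, *Fstl1* at 0.73, and *Fst* at -0.90 are past the threshold, and the intervals of *Mstn* and *Acvr2b* are the widest of the 10.

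The follistatin family moved in both directions. *Fst* lies on the minus strand of chromosome 13 from 114452290 to 114458951 (ENSMUSG00000021765). Its counts were 1770, 1239, and 1583 in the normal and 766, 815, and 825 in the DM1 libraries. Each DM1 library was below each normal library, and the mean level fell from 21.3 ± 1.26 to 11.4 ± 1.05 CPM (SD, n = 3 each). *Fst* had a log2 fold change of -0.90 with SE 0.114 (edgeR adjusted p = 0.00276), 0.534 times the normal level. It held in all 16 alternative settings, between -0.97 and -0.82, with adjusted p-values up to 0.0195. An antisense gene that shares exonic bases with *Fst* had at most 3 counts.

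*Fstl3*, which encodes a second activin and myostatin binding protein, lies on chromosome 10 from 79777272 to 79782630. The normal libraries held 3476, 2493, and 2888 counts of it and the DM1 libraries 3386, 3950, and 4537. Once scaled, the normal libraries lay between 40.6 and 41.3 CPM and the DM1 libraries at 45.5, 55.4, and 68.2 CPM, so the groups did not overlap but the DM1 libraries were spread widely. The log2 fold change of *Fstl3* was 0.46 (standard error 0.135), just short of the threshold in edgeR's test (adjusted p = 0.0524). It passed in 5 of the 16 alternatives, with adjusted p-values over all of them between 0.00960 and 0.303, among them DESeq2 (0.0138) and the fit without DM1 library 1 (0.00960). Without DM1 library 3 the log2 fold change of *Fstl3* was 0.30. In TPM the groups of *Fstl3* overlapped.

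*Fstl1* encodes a secreted glycoprotein that shares a follistatin-like domain with the other two but is not known mainly as an activin inhibitor. It lies on the plus strand of chromosome 16 from 37776873 to 37836514 (ENSMUSG00000022816) and was the most abundant of the 10 genes, with a higher TPM than 98.3% of the tested genes. It had 56450, 38193, and 42330 counts in the normal and 79986, 71929, and 70584 counts in the DM1 libraries. No normal library reached a DM1 library, and the mean level rose from 633 ± 34.2 to 1049 ± 34.8 CPM (SD, n = 3 each). Its log2 fold change was 0.73 with SE 0.0829 (edgeR adjusted p = 0.00211). In the 16 alternatives it lay between 0.59 and 0.77 with adjusted p-values up to 0.0288.

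In all, the groups of 5 of the 10 members did not overlap in CPM, namely *Inhba*, *Inhbb*, *Fst*, *Fstl1*, and *Fstl3*, where 37.2% of the genes tested showed no overlap. The unadjusted p-value was under 0.05 for 5 members, which were the 3 called genes, *Fstl3*, and *Acvr2a*, where 30.7% of the tested genes had one. The median log2 fold change of the members was 0.13, and it was 0.02 over all tested genes.

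Because *Inhba* and *Fst* encode a ligand and its inhibitor and went opposite ways, their levels were set against each other in each library. In TPM, *Inhba* stood at 19.4, 18.3, and 17.3 in the normal and 27.8, 31.5, and 38.0 in the DM1 libraries. *Fst* stood at 15.7, 14.1, and 16.5 TPM in the normal and 6.61, 7.57, and 9.48 TPM in the DM1 libraries. The ratio of *Inhba* to *Fst* TPM was 1.24, 1.29, and 1.05 in the normal libraries and 4.20, 4.16, and 4.01 in the DM1 libraries, so that near equal levels in the normal group stood beside about a 4-fold excess of *Inhba* in the DM1 group. With *Fstl3* added to *Fst*, the ratio was 0.333 ± 0.0196 in the normal and 0.553 ± 0.0708 in the DM1 group (SD, n = 3 each), since *Fstl3* was the more abundant of both inhibitors. *Fst* gave between 26.2% and 30.6% of the summed TPM of *Fst* and *Fstl3* in the normal and between 12.1% and 14.9% in the DM1 libraries, while the sum itself overlapped between the groups. These ratios were chosen after the changes of the genes were known and were not tested.

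**Figure D3:**
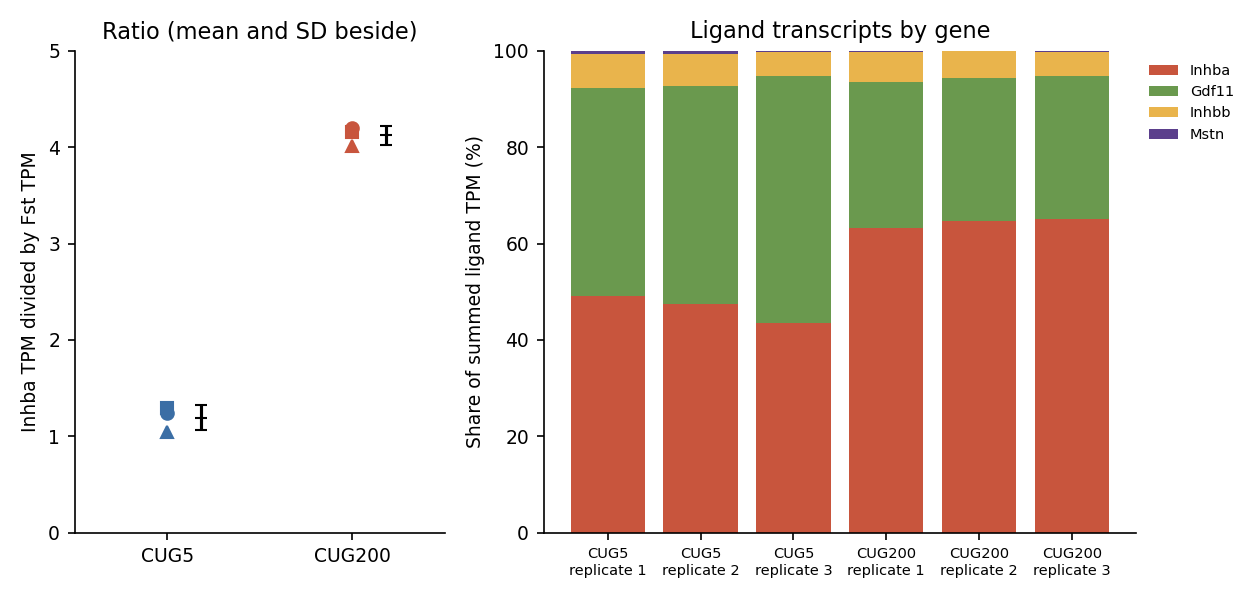
Left, TPM of *Inhba* divided by TPM of *Fst* in each library with the group mean and SD beside the points; right, the share in percent that each of the 4 ligand genes gave of their summed TPM in each library. The ratio lies between 1.05 and 1.29 in the normal and between 4.01 and 4.20 in the DM1 group, and the share of *Inhba* is higher in each DM1 library.

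The order of the levels was nearly the same in both groups. In TPM the normal group ran from *Fstl1* at 287 ± 31.4 over *Fstl3* at 39.6 ± 3.85, *Inhba* at 18.3 ± 1.05, *Gdf11* at 18.2 ± 1.76, *Fst* at 15.4 ± 1.20, *Acvr2a* at 8.96 ± 0.772, *Acvr1b* at 2.69 ± 0.213, *Inhbb* at 2.43 ± 0.385, and *Acvr2b* at 0.340 ± 0.0629 to *Mstn* at 0.220 ± 0.108 (SD, n = 3 each). Neighbors whose libraries overlapped were *Inhba* and *Gdf11*, *Acvr1b* and *Inhbb*, and *Acvr2b* and *Mstn*. In the DM1 group *Inhbb* and *Acvr1b* changed places, and the overlapping neighbors were *Fstl3* and *Inhba*, and *Fst* and *Acvr2a*. *Inhba* and *Gdf11*, level in the normal group, were apart in the DM1 group at 32.4 ± 5.19 and 15.1 ± 2.13 TPM. By the deposited coverage in place of TPM, 4 members of the normal and 6 of the DM1 group held the same rank.

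Genes with a pattern like that of *Fst* and *Mstn* were looked up by Pearson's correlation of log2(CPM + 0.5) over the 6 libraries, as a description. For *Fst*, the 5 nearest of 14020 genes included *Fam20b*, *Tars2*, *Abcf2*, and *Actn3*, the last a fast-fiber Z-disc protein gene, with correlations from 0.9983 to 0.9995. As many as 1725 genes exceeded 0.9 with *Fst*, as any gene that differs between the groups in the same direction can. For *Mstn*, the nearest were *Fam192a*, *Tmem177*, *Drp2*, *Mocs1*, and *Rxrb*, with correlations from 0.970 to 0.984, and 67 genes exceeded 0.9. The *Mstn* values rest on so few fragments that nothing is read from this order.

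Other genes of the pathway were taken as a list of 36, which holds further ligands, receptors, extracellular inhibitors, activating proteases, and SMAD proteins, and 26 of them passed the filter on low counts. By edgeR's test 4 were higher (*Tgfbr3*, *Inha*, *Dcn*, and *Bmp1*) and 4 were lower (*Tcap*, *Tgfbr1*, *Smad3*, and *Smurf1*), with a median log2 fold change of -0.02. Among all tested genes 7.13% were called higher and 8.73% lower. *Tgfbr3*, the co-receptor betaglycan that also binds inhibin, rose from 4.99 ± 0.428 to 9.03 ± 0.305 CPM (SD, n = 3 each), which is a difference on the log2 scale of 0.86 with SE 0.128 (edgeR adjusted p = 0.00477). *Inha*, the inhibin alpha subunit that pairs with the activin subunits, had a log2 fold change of 0.75 (edgeR adjusted p = 0.0425). *Inha* kept its call without DM1 library 1 and lost it without any other single library. It also lost it with library sizes alone, without robust estimation, and in both limma-trend fits, with adjusted p from 0.0504 to 0.181.

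*Tgfbr1*, a type I receptor gene that also serves myostatin, dropped to 19.8 ± 2.84 CPM in the DM1 group against 33.3 ± 2.03 CPM (SD, n = 3 each), which is a difference on the log2 scale of -0.75 with SE 0.120 (edgeR adjusted p = 0.00617). *Tcap*, a sarcomere protein gene whose product binds myostatin, had a log2 fold change of -1.61 (edgeR adjusted p = 0.00830). *Tgfbr1*, *Tgfbr3*, and *Tcap* kept their calls with any library left out. *Dcn* and *Bmp1* at 0.45 and 0.43 and *Smad3* and *Smurf1* at -0.31 and -0.32 on the log2 scale are small changes, named after their values were seen. *Smad3* and *Smurf1* kept their calls in 1 of the 6 fits without a library, and *Dcn* and *Bmp1* in 2. Each of these genes lost its call in both limma-trend fits. The *Smad3* value is of RNA, while western blots of the study showed more SMAD3 and p-SMAD3 protein in the DM1 group at day 4. *Dcn* encodes a matrix proteoglycan that can bind myostatin, *Bmp1* a protease that can free it from its propeptide, *Smad3* the signal carrier, and *Smurf1* a ubiquitin ligase of the pathway. The count of higher genes was 1 without normal library 1, 2, or 3 or DM1 library 2, and that of lower genes was 2 without normal library 1, 2, or 3 or DM1 library 1 or 2. *Smad2* and *Smad4* had log2 fold changes of -0.20 and 0.01 and were not past the threshold (edgeR adjusted p = 0.745 and 0.976). They are named for their roles after their values were seen. The ligand genes *Inhbc* and *Inhbe* were at 0 counts in every library, and the ligand gene *Nodal* had 4 counts in DM1 library 3 and 0 in the others.

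Genes known to respond to SMAD2 and SMAD3 were taken as a list of 16, of which 15 were tested. They went both ways, with 5 higher and 5 lower by edgeR's test and a median log2 fold change of 0.20. The shares over all tested genes were 7.13% higher and 8.73% lower. *Tagln*, an actin-binding gene, rose from 128 ± 10.3 to 318 ± 12.5 CPM (SD, n = 3 each), which is a difference on the log2 scale of 1.31 with SE 0.0898 (edgeR adjusted p = 4.81e-04). *Snai1*, a transcription factor gene, had a log2 fold change of 0.84 (edgeR adjusted p = 0.00319). *Ccn2* and *Itgb5*, a matricellular and an integrin gene, had log2 fold changes of -0.52 and -0.50 (adjusted p = 0.0258 and 0.00922 from the same test). *Junb* and *Bhlhe40* were also higher and *Tgif1*, *Cdkn1a*, and *Snai2* also lower, each by less than 0.5 on the log2 scale, named after their values were seen. The pathway's feedback inhibitor *Smad7*, which is in both lists and named after its value was seen, had a log2 fold change of 0.43 (edgeR adjusted p = 0.0952). *Tagln* and *Snai1* kept their calls with any library left out. *Itgb5* lost its call without normal library 3, and *Ccn2* without normal library 1 or 3 or DM1 library 1 or 2 and in both limma-trend fits. The count of higher genes was 3 without normal library 1 or 3 and 2 without normal library 2 or DM1 library 2. That of lower genes was 3 without normal library 1, 2 without normal library 2, 0 without normal library 3 (5 at an unadjusted p-value under 0.05 in that edgeR fit, and 5 with DESeq2 on all libraries), and 1 without DM1 library 2.

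**Figure D4:**
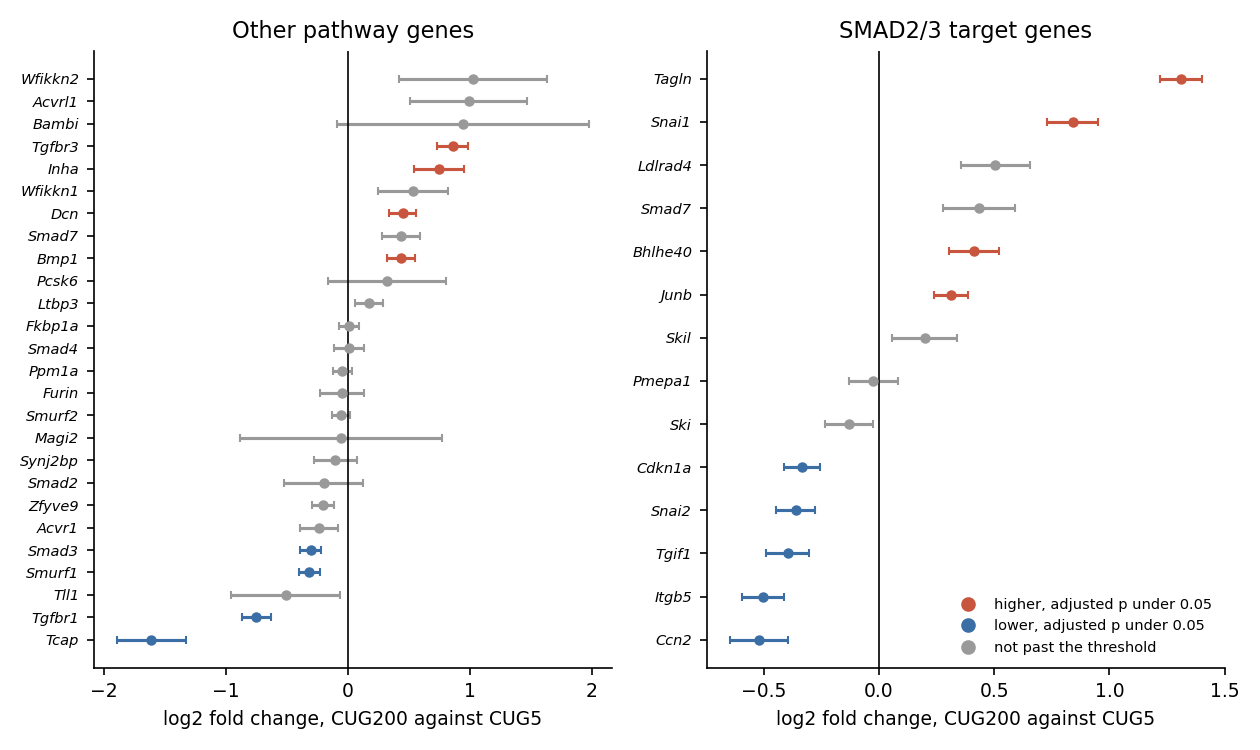
Log2 fold change, DM1 (CUG200) against normal (CUG5), with standard errors from edgeR, of the 26 tested genes of the pathway list (left) and of genes of the SMAD2/3 target list (right), ordered by value. Calls lie on both sides of 0 in each panel, with 4 higher and 4 lower drawn on the left and 4 higher and 5 lower drawn on the right.

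Of 7 myogenic factor genes, *Myog*, *Myod1*, and *Mef2c* were lower and 0 were higher in the DM1 group by edgeR's test (0 also by DESeq2 and at an unadjusted p-value under 0.05). Over all tested genes, 8.73% were called lower and 7.13% higher. *Myog*, the factor of terminal differentiation, which is also among the 12 muscle markers, stood at 204 ± 7.89 CPM in the DM1 group against 321 ± 2.15 CPM (SD, n = 3 each), which is a difference on the log2 scale of -0.65 with SE 0.0767 (edgeR adjusted p = 0.00227), and kept its call with any library left out. *Myod1* had a log2 fold change of -0.52 (adjusted p = 0.0129), lost without normal library 3 and without DM1 library 2. *Mef2c* had a log2 fold change of -1.01 (adjusted p = 0.0471), lost without normal library 2, without any 1 of the DM1 libraries, and with no filter beyond 1 count (edgeR adjusted p = 0.112). Normal library 3 held 8290 counts of *Mef2c* against 4912 and 4146 in the other normal libraries, and without it the log2 fold change was -0.62. These 3 factors and 8 of the 12 muscle markers were lower, as *Fst* was, and their part in the changes of the members was not tested.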

How the data were processed

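Total RNA of 3 normal (C2C12-CUG5) and 3 DM1 (C2C12-CUG200) libraries at differentiation day 4 was compared. According to the submitters' processing notes and the study's methods, Trim Galore, HISAT2 with GRCm38, and StringTie turned reads into values. They deposited counts per gene without normalization and, for each library, coverage (signal) per base, FPKM, and TPM values of every gene from StringTie. Versions, annotation, and strand setting are not given in the sources used here. StringTie's coverage times transcript length divided by 75 matched the deposited count within 1.5 counts in every library for 99.4% of 14004 genes with 1 transcript. All 6 count columns were used. Chi-square per degree of freedom of the counts between libraries, about 4 under sampling noise if 4 counts are 1 fragment, ran from 39.5 to 147 within groups and from 110.2 to 243 between them, so each counted as 1 replicate. The 147 was that of DM1 libraries 1 and 3, above the value of some pairs across groups.

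Library totals ran from 61707889 to 80957325 counts, and 3 counts were worth 0.0371 to 0.0486 CPM. The number of counts limits the precision of the low genes, and replicate SDs include it. Genes passing edgeR's filterByExpr (minimum count 10) were scaled by TMM and tested across all genes with edgeR's quasi-likelihood test, with robust estimation and without covariates, and Benjamini-Hochberg adjustment at 0.05. The study used DESeq2, which is an alternative here. The other alternatives were the replicate block, counts divided by 4, and limma-trend on log2(TPM + 1) or on log2(TPM + 0.1). Each library was also left out, estimation was run without robustness, and scaling used DESeq2 size factors or library size. The other filters were at least 1 count over all libraries together and at least 10 counts in every library. The tests were tested on simulated data with known changes. Those changes were larger than that of any member and lay only in genes with more counts on average than *Mstn* and *Acvr2b*. Smaller changes and lower counts were therefore not covered.

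The members and lists were chosen with earlier results of these data known. Named were the members, genes of the pathway, target, and myogenic lists past the test with an absolute log2 fold change over 0.5 (at most 5 in each direction), and the 5 genes most correlated with *Mstn* and *Fst* among those over 1 CPM. A gene of the target list and a gene correlated with *Fst* entered the counts but are not reported here. Gene spans in the deposited tables equal those of GENCODE M21 for the members. Tools were edgeR 4.0.16, limma 3.58.1, and DESeq2 1.42.0 in R 4.3.3, and matplotlib 3.10.9, scipy 1.17.1, numpy 2.4.6, and pandas 2.3.3 in Python 3.11.15.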

Additional observations from a re-analysis of the deposited data

How the results depend on the processing

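The calls of *Inhba*, *Fst*, and *Fstl1* held in every alternative, and no other member than *Fstl3* passed the threshold in any. *Fstl3* passed with no filter beyond 1 count (log2 fold change 0.45), at least 10 counts in every library (0.46), DESeq2 (0.46), counts divided by 4 (0.47), and without DM1 library 1 (0.60). Without 1 library, *Acvr1b* lay between -0.182 and 0.061, the positive value being that without DM1 library 3. With at least 10 counts in every library or counts divided by 4, *Mstn* failed the filter and had no value, and DESeq2 gave it no adjusted p. Without 1 library, the members past the fold cutoff numbered 0 to 1. The pathway list then had 1 to 5 genes higher and 2 to 4 lower, the target list 2 to 7 higher and 0 to 5 lower, and all genes 543 to 1678 higher, 485 to 2111 lower, and 273 to 438 past the fold cutoff.

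With library sizes alone, 2 pathway genes were higher and 2 lower, and 3 target genes were higher. With limma-trend on log2(TPM + 1), 1 pathway gene was higher and 2 were lower, 2 target genes were higher and 1 lower, and 427 genes in all were higher, 816 lower, and 140 past the fold cutoff. With log2(TPM + 0.1) the list counts were again 1, 2, 2, and 1, and 434 genes were higher and 850 lower. The cause was not tested. The median log2 fold change of all genes was -0.09 with log2(TPM + 0.1) and 0.02 in the count test. With log2(TPM + 1) the log2 fold change was 0.14 for *Inhbb*, -0.26 for *Gdf11*, -0.14 for *Acvr1b*, -0.13 for *Mstn*, and 0.30 for *Acvr2b*. With log2(TPM + 0.1) these were 0.19, -0.28, -0.19, -0.61, and 0.72 in that order, and none passed the threshold. By coverage, 4 members of the normal and 6 of the DM1 group kept their TPM rank. The replicate block, with the number in the labels as a term, gave 1326 genes higher and 1497 lower and the same numbers of members and list genes. The numbers gave no strong pairing, as same-numbered libraries had correlations of 0.0675, 0.0222, and 0.0263 of their deviations from the group means. DM1 libraries 1 and 3 correlated best with the normal library of the same number, and DM1 library 2 with normal library 3 (0.0451). *Mstn* and *Acvr2b* have the least depth of the members and had at most 76 counts in any library.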
